A study of Mus musculus with 35 samples.

Results

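The regions described here are 210 H3K4me3 domains of the mouse retina that were broad at postnatal day 14 (P14) and not at birth (P0). They were selected on peak width: a peak of at least 3000 bp in the wild-type P14 library titled replicate 3 that overlapped, by 1 bp or more, a peak of at least 3000 bp in P14 replicate 2 and no peak of that width in either wild-type P0 library. Of the 19669 peaks of P14 replicate 3, 1010 were at least 3000 bp wide, 670 of these were also broad in replicate 2, and 210 of those met the P0 condition. Another 376 of the 670 were broad in both P0 libraries as well and are the domains they were compared with below, and 84 were broad in 1 P0 library. The widths and heights of H3K4me3 at P0 and P14 therefore chose the domains and are given as a description only.

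The study profiled histone marks and the chromatin remodeller Brg1 in whole mouse retina by chromatin immunoprecipitation followed by sequencing. Wild-type retinae were taken at P0, P12, P14 and P21, with 2 libraries per mark and stage except at P12, where H3K4me3 and H3K27Ac had 1 wild-type library and H3K27me3 had 2. Brg1-deficient retinae were taken at P12 only, with 1 library for H3K4me3, 2 for H3K27Ac and 1 for H3K27me3. They came from Chx10-Cre;Brg1 Lox/Lox mice, in which Cre is active in retinal progenitor cells in a mosaic pattern, so wild-type cells remained, and animals with small eyes were preferred. Brg1 itself was mapped in 1 library, with an antibody to the FLAG tag, in P0 retinae of Brg1-FLAG mice. The files are lists of called peaks without gene names, on the mm9 build, so domains are named by position and the retina label could not be checked against marker genes.

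H3K4me3 marks the start sites of active and poised genes, usually as a narrow peak. At some genes, often those that define the identity or the function of a cell, the mark spreads over several kilobases into the gene. H3K27Ac marks active promoters and enhancers, whereas H3K27me3 is deposited by the Polycomb repressive complex and accompanies silencing. A promoter that carries H3K4me3 and H3K27me3 together is called bivalent, a state found at many developmental genes in immature cells. Between P0 and P21 the retina passes from a tissue that still holds dividing progenitors to a mature one dominated by rod photoreceptors. A whole-retina profile averages over all cells, so a domain that widened in each cell and a domain carried by a larger share of cells cannot be told apart here.

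The peak lists differed in size between libraries. The 8 H3K4me3 libraries held 18534 to 24124 peaks, and P21 replicate 1 stood apart with the most peaks and with 8.01% of them at least 3000 bp wide, against 3.58% to 6.56% in the others. The H3K27Ac libraries of replicate 1 at P0, P14 and P21 held 17433 to 18718 peaks, and those of replicate 2 held 29304 to 50005. Read depth is unknown, since the lists hold no read counts.

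The 210 domains lay on all 19 autosomes, from 3 on chromosomes 16 and 18 to 23 on chromosome 11, and none lay on X, where P14 replicate 3 held 634 peaks. Neighbouring domains were mostly far apart, with a median gap of 5490044 bp, but 4 neighbouring pairs were within 10000 bp and the closest was 134 bp apart. Their P14 replicate 3 peaks were 3020 to 10668 bp wide with a median of 3982 bp, and the widest overlapping peak in P14 replicate 2 had a median of 3539.5 bp. At P0 the widest overlapping peak had a median of 1779 bp in replicate 1 and 2007 bp in replicate 2. A P0 peak was present in both libraries at 170 domains, in 1 library at 4 and in neither at 36. For 63 domains the wider P0 peak was already 2500 bp or more, so a part of the set crossed the 3000 bp line by a small step. The gain in width, taken as the mean of the P14 widths less the wider P0 peak, ranged from 225.5 to 8986 bp with a median of 1905.5 bp, and 101 domains gained at least 2000 bp.

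Just inside the P14 threshold, chr1:39533060-39536079 and chr2:129417865-129420884 were both 3020 bp wide in P14 replicate 3, and chr11:54116997-54120028 was 3032 bp wide. Just outside it, chr1:193729737-193732722, chr9:119248692-119251664 and chr2:32250597-32253538 met every other condition with widths of 2986, 2973 and 2942 bp. In all, 41 peaks under 3000 bp met the other conditions. On the P0 side, chr17:87152226-87155649 was kept with a P0 replicate 2 width of 2991 bp, and chr2:12930537-12933551 was left out with a width of 3005 bp.

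**Figure D1:**
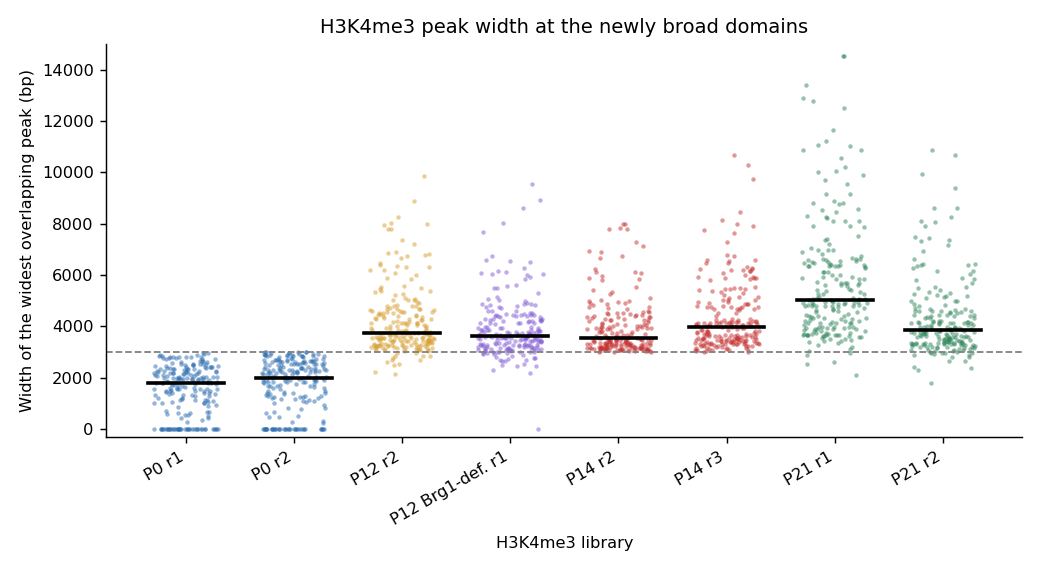
Width in bp (y axis) of the widest H3K4me3 peak overlapping each of the 210 newly broad domains in each library (x axis; 1 point per domain, 0 where no peak overlapped; black line, median; dashed line, 3000 bp). P0 and P14 widths fall on either side of the line by the selection, and the P12 and P21 widths, which were not used, had medians of 3641 to 5046.5 bp.

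The widest gains were mostly at domains with little or no H3K4me3 at birth. The definition of the gain favours such domains, since it subtracts the P0 width. The largest was at chr4:154896004-154906671, which had no peak in either P0 library, 7304 and 10668 bp in P14 replicates 2 and 3, and 11208 and 9949 bp in P21 replicates 1 and 2. Next came chr1:4340517-4350796, whose P0 peaks of 260 and 629 bp were followed by P14 widths of 5893 and 10280 bp and P21 widths of 11636 and 10883 bp. At chr17:72094553-72102310 there was no P0 peak, the P14 widths were 7134 and 7758 bp, and the P21 widths were 10213 and 8122 bp. These domains were as wide or wider at P21 than at P14 in most libraries, with the single decrease at the chromosome 4 domain, from 10668 bp in P14 replicate 3 to 9949 bp in P21 replicate 2. Among the 12 domains with the largest gains, chr17:47050716-47056989, chr6:115881860-115888437, chr8:13404895-13410759, chr11:67508260-67514476 and chr5:108816695-108822911 also had no P0 peak. The others, chr9:107576188-107584624, chr7:107804250-107814004, chr14:56137413-56145304 and chr9:59792203-59798345, had P0 peaks of 557 to 2005 bp. The 36 domains without a P0 peak had a median P14 replicate 3 width of 4386 bp, against 3831.5 bp in the 174 with one. Among the 36, the 5 widest at P14 were 6274 to 10668 bp wide in replicate 3, and included chr11:71845344-71851667 with 6324 bp.

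Most domains grew outward from a P0 peak on 1 side. Of their 923988 bp, 411659 bp lay under a P0 peak of either library and 512329 bp (55.4%) did not, which is called the gained part below. Of the 174 domains with a P0 peak, 122 reached at least 500 bp beyond the P0 peaks on 1 side only, 26 on both sides and 26 on neither. The longer extension had a median of 1151.5 bp and the shorter 71.5 bp. The longer side pointed to the lower coordinate in 88 domains and to the higher in 83. Gaps between P0 peaks that had closed by P14 were a smaller component: 19 domains had 500 bp or more of gained sequence between P0 peaks, and when P0 peaks separated by at most 500 bp were joined, 24 of the 210 came under a P0 peak of at least 3000 bp.

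The domains were broad 2 days before P14 in an independent library and stayed broad a week later. At P12 in wild type, 197 of 210 (93.8%, 95% Wilson interval 89.7 to 96.3) overlapped a peak of at least 3000 bp, against 6.52% of all P14 replicate 3 peaks. At P21 the count was 205 in replicate 1, 194 in replicate 2 and 191 in both (91.0%, 86.3 to 94.1), against 4.89% of all P14 replicate 3 peaks and 87.8% of the domains that were broad at P0 too. These intervals cover counting error only, and the all-peak shares are low in part by definition, since only 1010 of the 19669 peaks were broad at P14. The median width was 3756.5 bp at P12, 5046.5 bp in P21 replicate 1 and 3861 bp in P21 replicate 2. The replicates thus placed the P21 median on different sides of the 3982 bp of P14 replicate 3, and replicate 1 was the library with the largest share of peaks of at least 3000 bp genome-wide. Both P21 widths exceeded both P14 widths in 77 domains and lay below both in 5. Both exceeded both P0 widths in 206 domains. Of the 210, 181 were broad in all 3 wild-type P12 and P21 libraries.

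Only 2 domains had no single peak of at least 3000 bp in either P21 library. At chr4:128923166-128926228 the P0 peaks were 573 and 1189 bp wide, the P12 wild-type peak 3242 bp, the P14 peaks 3146 and 3063 bp, and the P21 peaks 2099 and 2977 bp. At chr12:103940953-103944060 the widest P0 peaks were 1485 and 2624 bp, the P14 peaks 3114 and 3108 bp, and the widest P21 peaks 2896 and 2403 bp. There the mark was split into several peaks at P0 and P21. Together these covered 2861 and 3036 of the 3108 bp at P0, and 3057 and 2847 bp at P21. Its change in width was thus largely a change in how peaks were split. Both domains were close to the threshold at P14. The other 3 of the 5 narrowest at P21, chr15:9021299-9024978, chr11:23154929-23158230 and chr11:6962699-6966420, were broad in P21 replicate 1 at 3524, 3456 and 3049 bp and not in replicate 2 at 1784, 2309 and 2899 bp. In P21 replicate 2 each of these 3 held 2 peaks, which together covered 3349 of 3680 bp, 3019 of 3302 bp and 3356 of 3722 bp. At chr11:23154929-23158230 the P0 peaks already covered 2831 and 3246 bp. The chromosome 15 domain had no P0 peak, and its widest P12 wild-type peak was 2694 bp.

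At P12 the domains, like the P14 replicate 3 peaks as a whole, were slightly narrower in the Brg1-deficient library than in the wild-type one. In Brg1-deficient retinae 185 of 210 (88.1%, 83.0 to 91.8) were at least 3000 bp wide, against 197 in wild type. Over all P14 replicate 3 peaks the shares were 4.87% in Brg1-deficient retinae and 6.52% in wild type, with median widths of 1254 and 1392 bp. The Brg1-deficient library held 19495 peaks and the wild-type one 22846. The median width of the domains was 3641 bp, against 3756.5 bp in wild type, and the median of the ratios was 0.963. The ratio was 0.975 in the domains that were broad at P0 too. Between the wild-type P21 libraries, whose widths were not used to choose the domains, the median ratio of replicate 2 to replicate 1 was 0.811. Of the 210 domains, 134 were narrower in the Brg1-deficient library and 74 wider, 24 were broad in wild type only and 12 in Brg1-deficient only, and none with a peak in both differed by more than 2-fold. With 1 library per genotype no test of this difference was possible, and the mosaic Cre leaves wild-type cells in the Brg1-deficient samples.

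A single domain, chr9:105372014-105377879, had no peak in the Brg1-deficient library. It was named after its values were seen, and was 3654 bp wide at P12 in wild type, 3583 and 5866 bp at P14, and without a peak at P0. Its H3K27Ac peak at P12 was 4152 bp wide in wild type and 1291 and 2082 bp in the Brg1-deficient libraries. H3K27Ac as a whole did not separate the genotypes: the median width over the domains was 3341 bp in the wild-type P12 library and 2913.5 and 3536 bp in the Brg1-deficient libraries, and the wild-type width lay below both at 53 domains, between them at 86 and above both at 71.

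Brg1 was found at most of these domains at birth, in peaks narrower than at the domains that were broad at P0 too. The widest Brg1 peak, 0 where none overlapped, had a median of 1252 bp at the 210 domains. It was 2426.5 bp at the domains that were broad at P0 too and 657 bp over all P14 replicate 3 peaks. A Brg1 peak overlapped 181 of the 210 (86.2%, 80.9 to 90.2), against 71.7% of all P14 replicate 3 peaks and all 376 domains that were broad at P0 too. The median width of all P14 replicate 3 peaks was 1280 bp, and a wider region is more easily overlapped. By bases, Brg1 covered 40.6% of the 210 domains, against 53.1% of all P14 replicate 3 peaks and 75.4% of the domains that were broad at P0 too. A Brg1 peak of at least 3000 bp overlapped 17 (8.10%, 5.12 to 12.6), against 4.58% of all P14 replicate 3 peaks and 36.2% of the domains that were broad at P0 too. Brg1 followed the H3K4me3 that was present at P0. It overlapped 168 of the 174 domains with a P0 H3K4me3 peak and 13 of the 36 without one, and covered 67.3% of the bases under a P0 H3K4me3 peak and 19.2% of the gained part. Of the 355 Brg1 summits inside the domains, 107 (30.1%) lay in the gained part. Of the 29 domains without a Brg1 peak, 23 had no P0 H3K4me3 peak. At P12 in wild type 26 of the 29 (89.7%) were broad, against 171 of the 181 with Brg1 (94.5%), and the median widths were 3928 and 3748 bp. In Brg1-deficient retinae 23 of the 29 (79.3%) and 162 of the 181 (89.5%) were broad. The median P12 width ratio of Brg1-deficient to wild type was 0.975 in the 29, against 0.962 in the 181. It leaves out chr9:105372014-105377879, which had no Brg1 peak and no peak in the Brg1-deficient library. With that domain counted as 0, the median widths in Brg1-deficient retinae were 3629 bp in the 29 and 3649 bp in the 181.

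H3K27me3 was present in both replicates at 58 of the 210 domains at birth, at 17 at P12, at 7 at P14 and at 3 at P21. At P0 an H3K27me3 island overlapped 59 domains in replicate 1, 73 in replicate 2 and 58 in both (27.6%, 22.0 to 34.0), against 26.5% of all P14 replicate 3 peaks and 24.7% of the domains that were broad at P0 too. At P14 islands overlapped 8 and 13 domains and 7 in both replicates (3.33%, 1.62 to 6.72), against 24.4% of all P14 replicate 3 peaks and 20.5% (16.7 to 24.8) of the domains that were broad at P0 too. At P21 the counts were 3 and 7, with 3 in both (1.43%, 0.487 to 4.12), against 26.3% and 19.4%. At P12 the wild-type libraries had islands at 20 and 25 domains, 17 in both (8.10%), against 29.3% of all peaks, and the Brg1-deficient library had islands at 20 (9.52%), against 31.4%. The P12 libraries were made with another H3K27me3 antibody, by their labels, than those of the other stages, and its part in the P12 values was not tested.

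**Figure D2:**
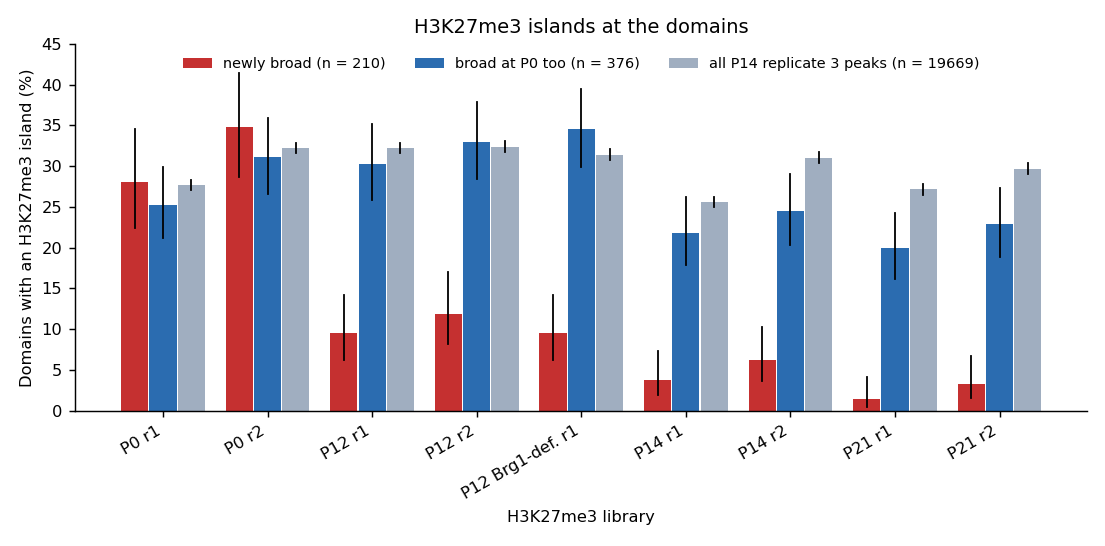
Percent of domains (y axis, from 0) that overlapped an H3K27me3 island in each library (x axis), for the 210 newly broad domains, the 376 domains broad at P0 too and all 19669 peaks of P14 replicate 3. Vertical lines are 95% Wilson intervals, for counting error only; the newly broad domains start at 28.1% and 34.8% at P0 and fall to between 1.43% and 6.19% at P14 and P21, whereas the other sets stay at 19.9% or more.

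The fall was seen in the same domains followed from P0. Of the 58 domains with an island in both P0 replicates, 33 (56.9%) had none in either P12 wild-type replicate and 15 (25.9%) had one in both, while 41 (70.7%) had none in the Brg1-deficient library. At the later stages 45 (77.6%) had none in either P14 replicate and 51 (87.9%) none in either P21 replicate. Among all P14 replicate 3 peaks with islands in both P0 replicates, 576 of 5217 (11.0%) had none at P12 in wild type, 763 (14.6%) none at P14 and 949 (18.2%) none at P21. Among the domains that were broad at P0 too, 22 of 93 (23.7%) had none at P12 in wild type, 31 (33.3%) none at P14 and 35 (37.6%) none at P21. Of the 136 domains without an island at P0, 0 had one in any P14 or P21 library, which allows a share of up to 2.21%, whereas 4.73% of all peaks without a P0 island had one in both P14 replicates. Called islands did not cover less of the genome at P14 and P21 than at P0. They covered 127 and 213 Mb at P14 and 142 and 152 Mb at P21, against 96.6 and 114 Mb at P0. Coverage by islands does not measure the amount of the mark, and read depth is unknown. P14 replicate 2, with 213 Mb, had 0 islands on X, where the other H3K27me3 libraries had 424 to 3330. The part of such differences between libraries in the fall was not tested.

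Most of the domains with islands in both P0 replicates were bivalent by position at birth, since 56 of the 58 had a P0 H3K4me3 peak. The islands covered a median of 100% of the domain in replicate 1 and 93.7% in replicate 2. A Brg1 peak was at 57 of the 58 (98.3%), near the 168 of 174 (96.6%) among all domains with a P0 H3K4me3 peak. H3K27Ac peaks in both P0 libraries were at 37 of the 58. Their later H3K4me3 widths were near those of the 136 domains without P0 islands. The P14 medians were 3473 and 3803.5 bp against 3543.5 and 3996.5 bp, but the selection held both classes to at least 3000 bp there. The P21 widths, which were not used in the selection, had medians of 4797.5 and 3714 bp against 5129 and 3919.5 bp. At P21, 54 of the 58 were broad in both replicates, as were 122 of the 136.

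The domain at chr1:74900417-74906492 overlapped islands of 124799 bp in P0 replicate 1 and 126799 bp in replicate 2. At P12 the widest overlapping island was 4599 and 3599 bp in wild type and 3199 bp in Brg1-deficient retinae, at P14 it was 1399 bp in replicate 1 with none in replicate 2, and at P21 there was none. Its H3K4me3 peaks over the same time went from 2730 and 2655 bp at P0 to 5788 and 6076 bp at P14 and to 6612 and 6432 bp at P21. Every later library of this domain thus had a narrower island, or none, and a wider H3K4me3 peak than both P0 libraries. At chr8:87467755-87471914 islands of 19199 and 20599 bp at P0 were followed by none in any of the 7 later libraries, while H3K4me3 went from 2010 and 1975 bp to 4239 and 4160 bp at P14 and 4219 and 4136 bp at P21. At chr8:74086152-74091008 islands of 17599 and 18799 bp at P0 were followed by 1 of 10399 bp in P12 wild-type replicate 1 and by none at P14 and P21. At chr7:52418951-52424401 the replicates of P14 differed, with no island in replicate 1 and 1 of 9399 bp in replicate 2, and at P21 there was none.

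The 3 domains with islands in both P21 replicates were the exceptions, and 2 of them are named here after their values were seen. The domain at chr12:87761755-87766457 kept islands of 10199 and 9599 bp at P14 and of 3799 and 3999 bp at P21, and reached an H3K4me3 width of 8279 and 7471 bp at P21. At chr17:87152226-87155649 the islands were 10399 and 10599 bp wide at P0 and 6799 and 6999 bp at P21. At chr8:26210227-26214369 they went from 7199 and 8599 bp at P0 to 1399 and 4799 bp at P21.

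**Figure D3:**
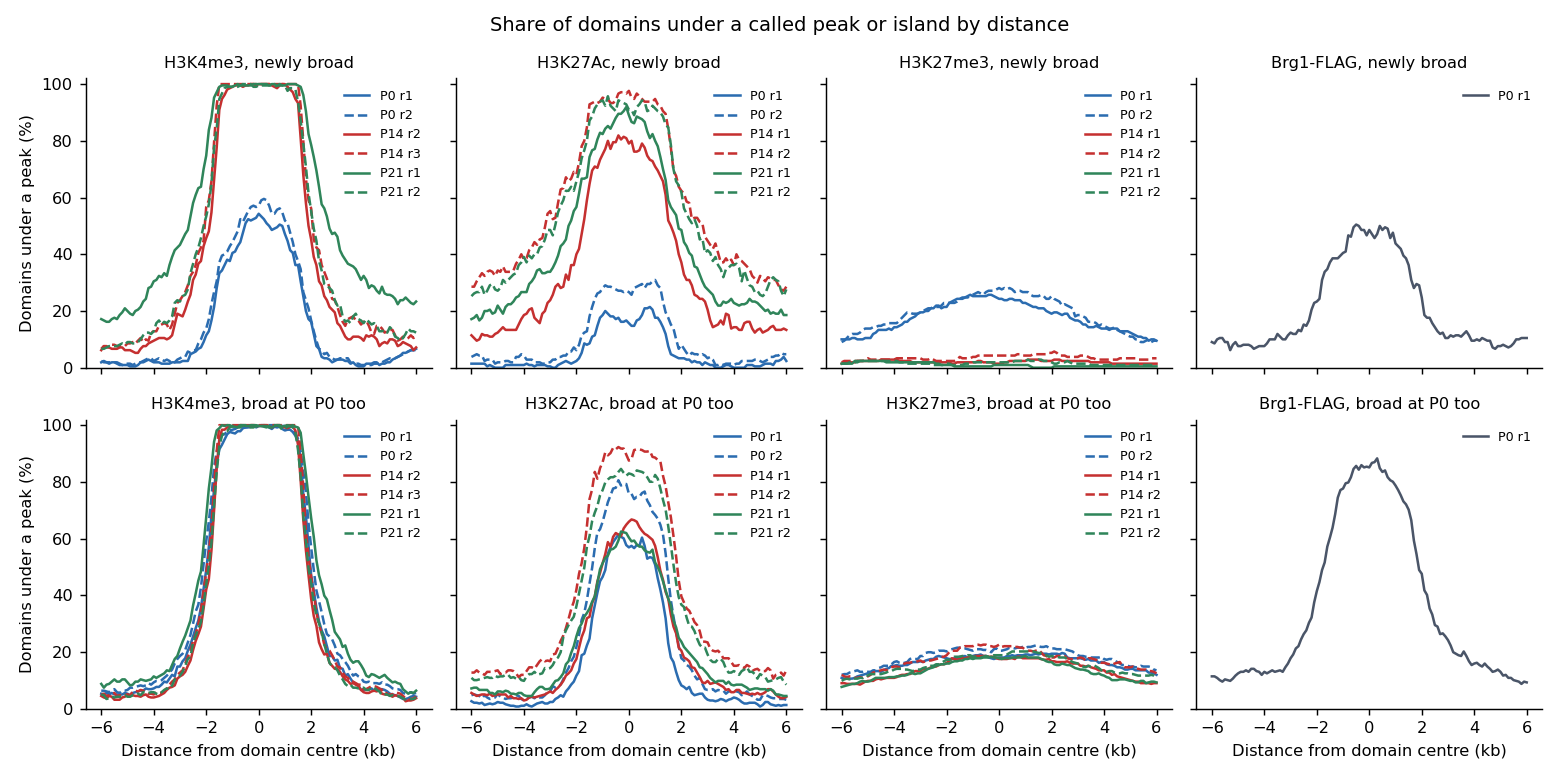
Percent of domains under a called peak or island (y axis) by distance from the domain centre in kb (x axis), for the 210 newly broad domains (top) and the 376 broad at P0 too (bottom); each line is 1 wild-type library, or the Brg1-FLAG library. At the centre of the newly broad domains H3K27Ac covered 15.7% and 26.7% of domains at P0 and 79.0% to 97.6% at P14 and P21, and H3K27me3 covered 24.3% and 28.1% at P0 and 0.952% to 4.29% at P14 and P21, whereas it covered 17.6% to 22.6% of the domains broad at P0 too at all 3 of these stages.

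H3K27Ac was present in narrow peaks at most of these domains at P0 and covered most of the gained part from P12 on. At P0 an H3K27Ac peak overlapped 140 of the 210 in both libraries, and 41 had none in either. The share with a peak in both was 58.8% of all P14 replicate 3 peaks, which are narrower, and 96.3% of the domains that were broad at P0 too. By bases, H3K27Ac at P0 covered 13.1% and 22.5% of the 210 domains, against 31.6% and 50.8% of all P14 replicate 3 peaks. From P12 on, every library had a peak at all 210, wild-type and Brg1-deficient, whereas 48.4% of all P14 replicate 3 peaks had one in both P14 libraries and 42.4% in both P21 libraries. The share among domains that were broad at P0 too, which are of like width at P14, was 90.2% at P14 and 84.3% at P21. The median width of the widest H3K27Ac peak was 423.5 and 826.5 bp at P0, 2500.5 and 4126 bp at P14, and 3437.5 and 3650.5 bp at P21. In the domains that were broad at P0 too it was 1176.5 and 1944.5 bp at P0, 1558 and 2967.5 bp at P14, and 1390 and 2369.5 bp at P21. H3K27Ac covered 0.385% and 3.09% of the gained part at P0, 83.0% at P12 in wild type, 60.0% and 87.2% at P14 and 74.4% and 83.3% at P21. In the bases already under a P0 H3K4me3 peak it covered 29.0% and 46.7% at P0 and 80.5% and 96.5% at P14.

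The domains that lacked H3K4me3 at birth mostly lacked H3K27Ac too. Of the 36 without a P0 H3K4me3 peak, 30 had no H3K27Ac peak in either P0 library, against 11 of the 174 with one. At 25 of the 36 there was no P0 H3K27me3 island either, and at 16 of those 25 no Brg1 peak, so that nothing was called there at birth. The domain at chr4:154896004-154906671 had no P0 peak of H3K4me3, H3K27Ac, H3K27me3 or Brg1. Its H3K27Ac peaks were 6365 bp wide at P12 in wild type, 3577 and 3354 bp at P14, and 4879 and 1778 bp at P21. The fewest H3K27Ac libraries with a peak was 7 of 9, the 2 without being those of P0, as at chr1:89702889-89705975, chr1:152166580-152173063, chr1:190085359-190089192 and chr10:25128039-25131574.

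**Figure D4:**
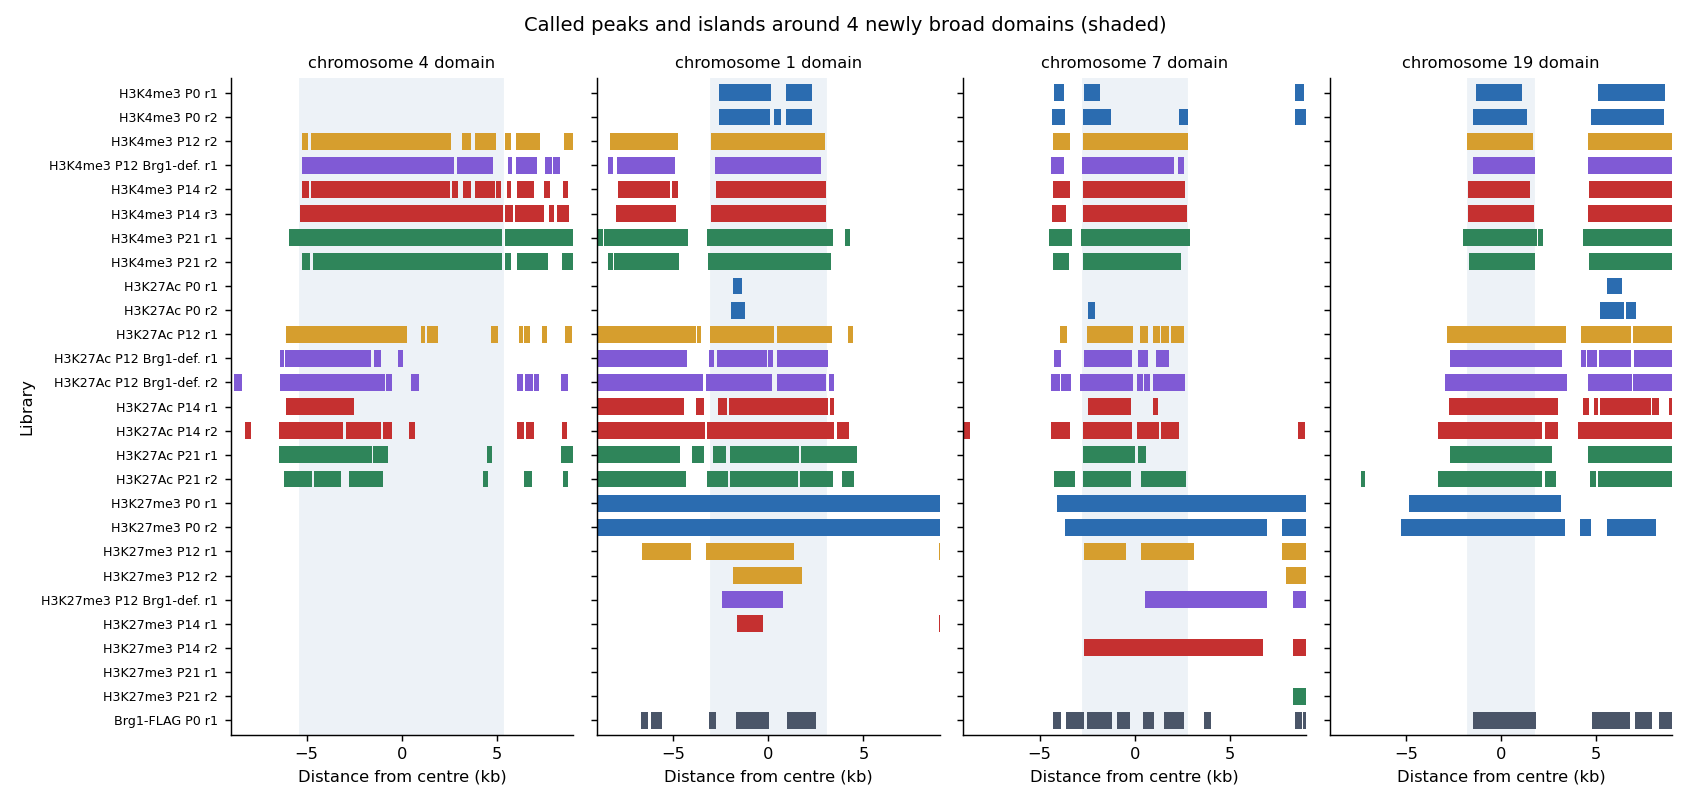
Called peaks and islands (bars) in each library (y axis; 8 of H3K4me3, 9 of H3K27Ac, 9 of H3K27me3 and 1 of Brg1-FLAG) within 9 kb of the centre of 4 newly broad domains (shaded), by distance in kb (x axis). The chromosome 4 domain has no bar at P0, and the chromosome 1, 7 and 19 domains lie under H3K27me3 islands at P0 that are narrower or gone at P14 and P21.

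Heights of H3K27Ac were compared between stages in all 33340 regions with a peak in at least 2 of the 6 wild-type P0, P14 and P21 libraries. A height is the highest fold enrichment over input in the region, scaled between libraries on the regions they shared, and 0 where no peak was called. All 210 domains fell in a tested region, 2 of them in the same one. Each domain took the region with the largest overlap, which can reach beyond the domain or leave out a part of it. At the domains the median height was 5.70 and 5.76 at P0, 18.5 and 11.7 at P14, and 21.2 and 12.7 at P21. In the 371 domains broad at P0 too that were tested it was 11.9 and 11.0 at P0, 13.5 and 10.8 at P14, and 12.5 and 10.3 at P21. Both P14 heights exceeded both P0 heights at 164 of the 210, against 16.7% of all regions, and lay below both at 6, against 19.1%. Both P21 heights exceeded both P0 heights at 169, against 24.8%, and lay below both at 4, against 18.1%. At 41 of the 210 both P0 heights were 0 and every later height was above 0, so these could only count as higher. Of the 371 domains broad at P0 too, 97 were higher and 95 lower by this measure at P14, and 93 were higher and 101 lower at P21. On the log2(height + 2.08) scale the difference from P0 had a median over the domains of 1.16 at P14 and 1.24 at P21, against 0.36 and 0.52 over all regions and 0.04 and -0.08 over the domains broad at P0 too. Without scaling, the median over all regions at P21 was 0.23 in place of 0.52, and that over the domains was 0.78.

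**Figure D5:**
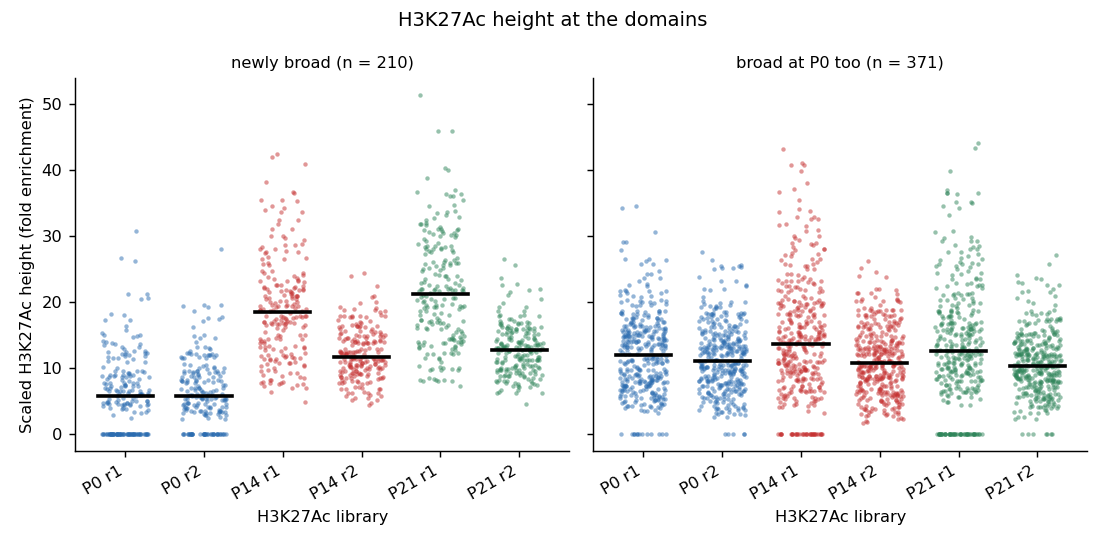
Scaled H3K27Ac height, as fold enrichment over input (y axis), in each wild-type library of P0, P14 and P21 (x axis), for the 210 newly broad domains and the 371 tested domains broad at P0 too (1 point per domain, 0 where no peak was called; black line, median). In the newly broad domains the median goes from 5.70 and 5.76 at P0 to between 11.7 and 21.2 later, and in the other set it stays between 10.3 and 13.5.

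Few of these differences passed the test across all regions, which rests on 2 libraries per stage. At P14, limma with Benjamini-Hochberg adjustment called 0 of the 210 higher and 0 lower, as it called 0 (0%) of all regions in either direction, with a smallest adjusted p of 0.0893 over the domains. At an unadjusted p under 0.05, 100 domains were higher, against 10.3% of all regions, and 0 were lower, against 5.74%. At P21 limma called 44 domains higher, against 7.94% of all regions, and 0 lower, against 2.46%, with 0 lower also at an unadjusted p under 0.05, against 7.11%. The 44 had adjusted p-values from 0.0477 to 0.0495, at the edge of the threshold of 0.05. Leaving out P0 replicate 1, P0 replicate 2, P14 replicate 1 or P21 replicate 1 reduced the 44 to 0, and without P14 replicate 2 there were 65. Of the domains broad at P0 too, 2 were called higher and 3 lower at P21.

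Of the 44, 37 had no H3K27Ac peak in the tested region in either P0 library, so no fold against P0 is given for them. The count is by region: chr9:107576188-107584624 is among the 37, although a P0 replicate 2 peak of 696 bp overlapped the domain outside its region. The P0 heights of the 37 were set to 0 in both libraries, which leaves no spread at P0. Their regions entered the test through the P14 and P21 peaks alone, so their p-values do not measure a difference between called heights. Among regions with a peak in every library, where no height was set to 0, limma called 41 of 142 domains higher at P21, against 2.99% of those 6394 regions, and 34 higher at P14, against 1.42%. The 5 of the 44 with the smallest p had P0 heights of 0 and are given by their later heights. At chr19:23208342-23211784 the heights were 19.5 and 12.6 at P14 and 25.9 and 16.0 at P21. That domain had P0 H3K4me3 peaks of 2434 and 2863 bp inside H3K27me3 islands of 7999 and 8599 bp, which were in none of the later libraries. At chr5:108816695-108822911 the heights were 11.6 and 9.76 at P14 and 29.9 and 15.2 at P21, and H3K27me3 islands of 33599 and 34399 bp at P0 were likewise followed by none. At chr17:47050716-47056989, chr15:100946033-100950183 and chr14:64610822-64615576 the P21 heights were 26.1 and 15.9, 31.4 and 15.6, and 29.8 and 17.5. In each of these 5 domains both P14 and both P21 heights were above 0 where P0 was at 0. The 7 called domains with a P0 height above 0 in at least 1 library differed by 2.0 to 2.87 on the log2 scale. Of these, 1 had a P0 height above 0 in both libraries: chr2:180190408-180195148, named after its values were seen. Its heights were 3.07 and 3.21 at P0, 19.4 and 15.1 at P14, and 22.4 and 15.6 at P21 (log2 difference 2.0, SE 0.42, limma adjusted p = 0.0480 at P21).

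Where both P0 libraries had a peak, the heights were also higher later at most domains. Of the 142 domains in regions with a peak in both P0 libraries, 96 had both P14 heights above both P0 heights, against 11.7% of the 13795 regions with a peak in both P0 libraries, and 101 had both P21 heights above them, against 12.6%. The median log2 differences of these domains were 0.76 at P14 and 0.82 at P21, against -0.49 and -0.70 over those regions. The 13795 regions were kept on their P0 peaks and include ones with a later height of 0, which could not count as higher. The 142 domains include none of these. Among the 6394 regions where no height was set to 0, the medians were -0.0009 at P14 and 0.005 at P21. At chr11:23154929-23158230 and chr12:103940953-103944060, which were among the 5 narrowest at P21, the P0 heights of 30.8 and 19.5, and of 21.2 and 13.9, were not below those at P21, which were 12.2 and 12.6, and 8.18 and 13.02.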

How the data were processed

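Chromatin of whole mouse retina was profiled for H3K4me3 (8 libraries), H3K27Ac (9), H3K27me3 (9) and Brg1-FLAG (1). Per the submitters' processing notes, CASAVA, BWA (0.5.9-r26), Picard (1.65), SAMtools, R (2.14.0), MACS2 (2.0.9), bedtools (2.17.0) and SICER (1.1) were used on the mm9 build. The authors deposited 1 list of peaks per library: MACS2 narrow peaks hold the fold enrichment (ratio) at the summit and −log10 p- and q-values, and SICER islands hold positions and a value whose meaning is not given in the sources used here. That value and the deposited score column were not used, nor were the input libraries. The P14 H3K4me3 samples are titled replicates 2 and 3, although their lists are numbered otherwise, and the titles were followed.

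Widths are end minus start, and positions are printed 1-based. Overlap means 1 bp or more, and each domain takes the widest overlapping peak of a library. Overlaps were checked against bedtools (2.31.1) in 27 libraries. For H3K27Ac, wild-type P0, P14 and P21 peaks were merged into regions, and log2(height + 2.08), where 2.08 is the 5th percentile of heights above 0, was tested with limma (3.58.1) in R (4.3.3) over the 3 stages, after a filter for a peak in 2 libraries. The fit was also run on simulated data with no heights set to 0, so that run does not bear on calls with P0 heights of 0. The pseudocount shrinks differences between low heights, and a height of 0 means that no peak was called, not that enrichment was absent. The study calls its replicates biological duplicates; p-values measure the spread between these libraries. Wilson intervals are at the 95% level.

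The domains and the rules were chosen with earlier results of these data known. Domains are named by rule: the 12 largest gains, the 3 on either side of the P14 threshold, the 5 narrowest at P21, up to 5 without a P0 H3K4me3 peak (widest first), up to 5 with H3K27me3 islands in both P0 replicates (largest share covered first), up to 5 H3K27Ac calls per contrast and direction (smallest p), and 5 with the fewest H3K27Ac libraries. No mm9 annotation or sequence was used here, so genes and sequences are not given. Alternatives were another width, overlap, joining of gaps, equal numbers of peaks, the other P14 replicate, libraries left out and, for H3K27Ac, another pseudocount, scaling, filter, set of stages and a replicate block.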

Additional observations from a re-analysis of the deposited data

How the results depend on the processing

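For the number of domains, their later width, Brg1, H3K27me3 and H3K27Ac, 122 alternative values were computed. Of these, 104 stayed within the replicate spread, the counting interval or 1.5 times the main count, and 18 moved. The 104 include the counts of domains with lower H3K27Ac, which were 0 under every setting. Reversals were not assessed as a class of their own. The 210 domains became 91 at a width of 4000 bp, and leaving out 1 H3K4me3 library of P0 or P14 gave 215 to 362, the 362 being without P14 replicate 2. At 4000 bp the share broad in both P21 replicates went from 91.0% to 86.8% and the share broad in Brg1-deficient retinae from 88.1% to 80.2%, and with gaps joined the P12 wild-type share went from 93.8% to 96.7%. With 1 H3K4me3 library left out, the share broad at P21 was 73.2% to 91.2%, at P12 in wild type 76.2% to 94.1% and in Brg1-deficient retinae 65.7% to 88.4%, each lowest without P14 replicate 2. The shares with Brg1 and H3K27me3 moved under none of these. H3K27Ac higher at P14 went from 0 to 31 domains with a pseudocount of 1, to 34 of 142 tested with a peak in every library, and to 42 with only the 2 stages compared; higher at P21 it went from 44 to 0 without scaling and to 0 with the pseudocount taken after the filter, an alternative added after the data were seen, and was 0 to 65 with 1 library left out. Deviations of same-numbered H3K27Ac libraries correlated at 0.08 between P0 and P14, 0.02 between P0 and P21 and 0.45 between P14 and P21. Same-numbered libraries thus shared little deviation between P0 and the later stages, and some between P14 and P21. The main fit held no replicate block. With the block, 66 domains were called higher at P21 and 0 at P14, with 0 lower at either stage. A library left alone in its stage was assumed to vary like the others.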
